A study of Mus musculus with 4 samples.

Results

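The ERK feedback genes are transcripts that the RAS-RAF-MEK-ERK kinase cascade induces and whose products then restrain it or carry its output. The set held 10 genes, Dusp4, Dusp5, Dusp6, Spry1, Spry2, Spry4, Spred1, Etv4, Etv5 and Phlda1, chosen by gene symbol, out of 23481 genes in the deposited count table. All 10 had enough reads to be tested, along with 12833 others, 12843 in all. The cells were 4T1-T, derived from 4T1, a mammary carcinoma line of the mouse, and in every library Asns, which encodes asparagine synthetase, had been silenced. They were grown in DMEM that lacked asparagine (2 libraries, A and B, called asparagine-free here) or held it (2 libraries, A and B, called asparagine-fed). The comparison asks how the supply of asparagine altered these transcripts. No library of unsilenced cells was analysed here, and the labels do not say whether the libraries came from separate cultures, so the spread behind the p-values is that of these samples and may be technical.

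In this cascade a growth factor receptor activates RAS, which activates RAF, MEK and finally the kinases ERK1 and ERK2. Active ERK enters the nucleus and switches on genes for its own inhibitors, so that the level of their transcripts is widely used as a readout of recent ERK activity. Dual-specificity phosphatases remove the activating phosphates from ERK, Sprouty and Spred proteins act between the receptor and RAF, and the ETS factors ETV4 and ETV5 carry the signal to further genes. In mammary carcinoma cells the cascade is best known for driving proliferation and motility.

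The libraries held between 17977552 and 30260582 reads assigned to genes. Levels are given as counts per 1000000 reads (CPM) of the library total after scaling by the trimmed mean of M values (TMM), which sets libraries level on the bulk of genes. Asparagine-free library A stood apart, with 56.6% of its reads assigned to no counted feature, against 46.3% to 49.3% in the other libraries. The annotation and the use of strand in counting are not given, so such reads need not lie outside genes. Its share of gene reads from Rn45s, the ribosomal RNA precursor, was 3.53%, against 0.884% to 1.66%. The part of both differences in the results was not tested. The fold changes of the members and of Etv1, Errfi1, Rps6ka1, Pdgfra and Fgfr1 are also given without that library. For the other pathway genes named (Met, Myc, Epha4, Egr1 and Ccnd1) they are not. Asns stood at 74.99 and 89.2 CPM in asparagine-free libraries A and B and at 103 and 101 CPM in the asparagine-fed pair, which does not measure the silencing. The 6 epithelial markers of a mammary carcinoma line (Epcam, Cdh1, Krt8, Krt18, Krt7 and Krt14) were all read, with sums of 1019 and 990 CPM in asparagine-free libraries A and B and 811 and 902 CPM in the asparagine-fed pair. Krt14 rose 6.65-fold and Epcam 1.60-fold without asparagine (edgeR adjusted p = 0.00434 and 0.0368), the other 4 were not called, and the part of these markers in the results on the feedback genes was not tested. Of the leukocyte markers Cd3e had no read, and that list summed to between 6.98 and 8.01 CPM, most of it from Cd68. The endothelial markers summed to between 0.671 and 1.60 CPM. The fibroblast list summed to 18.5 and 23.3 CPM without and 43.3 and 41.2 CPM with asparagine, nearly all of it from the receptor gene Pdgfra, while the collagen genes Col1a1 and Col1a2 stayed below 1 CPM on average in each group (0.347 and 0.294 CPM for Col1a1, without and with asparagine). In RNA from a whole culture, fewer cells of a type and less RNA per cell cannot be told apart.

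Of the 10 feedback genes, 8 had a lower mean level without asparagine and 2 a higher one. Over all genes tested the fold change was below 0 for 6245 and above 0 for 6598. The 8 include Spry2, at a log2 fold change of only -0.020, and the signs of Spry2 and Etv4 turned without asparagine-free library A. Dusp6, the cytoplasmic ERK phosphatase, was the 1 member that passed the edgeR quasi-likelihood test (adjusted p under 0.05 over all genes tested), and it fell by 0.63 on the log2 scale. Over all genes tested 1.85% were called in either direction, 1.07% lower and 0.771% higher, so the share called here, 1 of 10, rests on a single gene. DESeq2 called 3 of 10, Dusp6, Spred1 and Etv5, all lower, against 3.61% of all genes tested. At an unadjusted p under 0.05 there were 5 of 10 members, Dusp6, Spred1 and Etv5 lower and Dusp5 and Phlda1 higher, against 18.1% of all genes tested. The median log2 fold change of the members was -0.31, against 0.01 over all genes tested. Without asparagine-free library A it was -0.11, and without library B it was -0.48. The members and their pattern were chosen with earlier results of these data known, so the median is a description without a test.

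**Figure D1:**
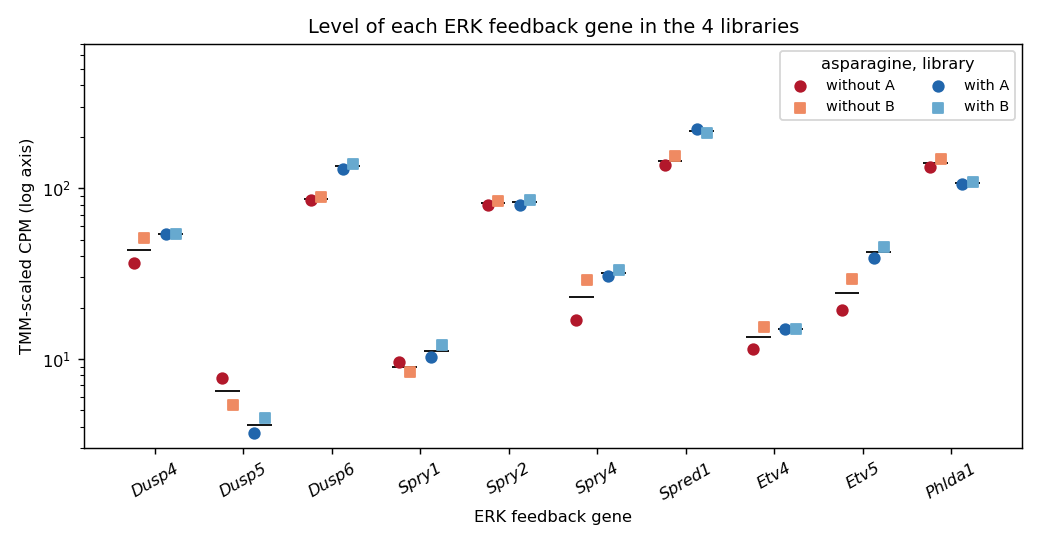
TMM-scaled CPM of each ERK feedback gene on a log axis in the 4 libraries, with circles for library A, squares for library B and black lines for the mean of 2 libraries. Dusp6, Spred1, Etv5, Dusp4, Spry1 and Spry4 lie lower in both asparagine-free libraries (reds) than in both asparagine-fed ones (blues). Phlda1 and Dusp5 lie higher. Of all genes tested, 52.5% are separated in one direction or the other.

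The promoters show which of the DNA elements linked to this pathway lie at the start of the members. RefSeq (build GRCm38.p6, the build also called mm10) gave windows of 300 bases, from 250 before to 50 after a start site, for 6 members and 7 start sites. Dusp4, Etv4, Phlda1 and Spry4 had no entry. The windows were searched on both strands for the ETS sequence CCGGAAGT and the shorter GGAAGT within it, the AP-1 sequence TGANTCA, the cAMP response element TGACGTCA and the shorter TGACG within it, and the CArG box, the core of the serum response element. Of 32851 windows of the same length, CCGGAAGT was found in 3.89%, GGAAGT in 23.8%, TGANTCA in 7.81%, TGACGTCA in 1.79%, TGACG in 20.8% and a CArG box in 1.63%. CCGGAAGT, TGANTCA and TGACGTCA were in none of the 7 member windows. The Dusp5 window held 2 CArG boxes side by side, at -82 to -73 and -72 to -63 from the start site, with GGAAGT at -193 to -188 and TGACG at -55 to -51 on the opposite strand. The downstream start site of Etv5 held 2 copies of GGAAGT, at -217 to -212 and at 3 to 8. The windows of Dusp6, Spred1, Spry1, Spry2 and the upstream start of Etv5 held none of the searched motifs. Neither GGAA alone nor any base outside the windows was searched. The bases before the first coding-gene exon are printed for Dusp6, the member that passed the test, for Dusp5, whose fold change was above 0 without passing the test and which had the only CArG boxes found among these windows, and for Etv5, the member with the largest fold change, at its downstream start. Motifs are in capitals.
Dusp6, chr10:99262981-99263230, plus strand: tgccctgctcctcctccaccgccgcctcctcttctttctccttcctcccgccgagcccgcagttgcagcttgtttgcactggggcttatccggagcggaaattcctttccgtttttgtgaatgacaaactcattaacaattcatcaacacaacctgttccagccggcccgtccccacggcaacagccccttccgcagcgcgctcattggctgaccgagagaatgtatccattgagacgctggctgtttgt
Dusp5, chr19:53528895-53529108, plus strand: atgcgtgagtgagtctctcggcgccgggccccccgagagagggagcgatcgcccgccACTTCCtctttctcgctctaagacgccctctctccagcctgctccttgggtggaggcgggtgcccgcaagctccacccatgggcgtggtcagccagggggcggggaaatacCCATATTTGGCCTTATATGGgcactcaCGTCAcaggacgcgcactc
Etv5, chr16:22438369-22438618, minus strand: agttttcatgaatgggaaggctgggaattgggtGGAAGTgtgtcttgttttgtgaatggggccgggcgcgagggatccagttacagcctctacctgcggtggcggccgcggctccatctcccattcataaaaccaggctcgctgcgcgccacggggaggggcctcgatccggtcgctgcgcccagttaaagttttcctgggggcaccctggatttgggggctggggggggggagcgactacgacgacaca

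Of the 3 phosphatase genes, Dusp6 fell and Dusp4 and Dusp5 did not pass the test. DUSP6 acts on ERK in the cytoplasm, DUSP5 on ERK in the nucleus, and DUSP4 is a nuclear phosphatase that also acts on other MAP kinases. Dusp6 stood at 84.9 and 88.9 CPM in asparagine-free libraries A and B and at 130 and 139 CPM in the asparagine-fed pair. The groups were far apart compared with the spread inside each, with means of 86.9 ± 2.87 and 134 ± 6.27 CPM (SD, n = 2 each). The level was 1.55-fold higher with asparagine, a log2 fold change of -0.63 ± 0.10 (SE, 95% interval -0.87 to -0.39, edgeR adjusted p = 0.0368). The fold change was nearly the same whichever library was left out, from -0.68 to -0.58, and -0.59 without asparagine-free library A. The call was nevertheless lost without asparagine-fed library A (adjusted p = 0.360) and without asparagine-fed library B (adjusted p = 0.530), when the spread of the group without asparagine alone set the error.

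Dusp5 was the least abundant member, at 7.68 and 5.37 CPM in the asparagine-free pair and 3.70 and 4.50 CPM in the asparagine-fed pair. These values rest on 141, 120, 88 and 135 reads. Both asparagine-free libraries lay above both asparagine-fed ones. Its log2 fold change of 0.66 ± 0.23 (SE, 95% interval 0.10 to 1.21) did not pass the test (edgeR adjusted p = 0.217). Without asparagine-free library A it was 0.38. In GENCODE M21 an exon of the gene AC137853.2 overlaps Dusp5 on the opposite strand, and reads of that gene may be included, since the use of strand in counting is not given in the sources used here.

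Dusp4 read 36.4 and 50.8 CPM in the asparagine-free pair and 53.6 and 54.3 CPM in the asparagine-fed pair. Asparagine-free library A was the low one, while library B lay close to the asparagine-fed libraries. The log2 fold change of -0.31 (95% interval -0.69 to 0.08) did not pass the test (edgeR adjusted p = 0.367), and it was -0.08 without that library and -0.57 without asparagine-free library B. The ratio of Dusp6 to Dusp5 reads, which does not depend on scaling, was 11.0 and 16.6 in asparagine-free libraries A and B and 35.1 and 30.8 with it.

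Sprouty proteins bind adaptors and RAF to blunt receptor signals, and SPRED1 brings the RAS inactivator neurofibromin to the membrane. All 4 members had a fold change below 0, against 6245 of all 12843 genes tested, and 0 passed the edgeR test. At an unadjusted p under 0.05 the count was 1, Spred1, against 18.1% of all genes tested. DESeq2 also called Spred1, against 3.61% of all genes tested, while limma-voom called 0 members, against 1.83%. Spred1 stood at 137 and 154 CPM in asparagine-free libraries A and B and at 222 and 209 CPM in the asparagine-fed pair. The groups did not overlap. The means were 145 ± 11.98 and 216 ± 9.29 CPM (SD, n = 2 each), and the log2 fold change was -0.57 ± 0.11 (SE, 95% interval -0.83 to -0.31). The edgeR adjusted p was 0.0587, above the threshold of 0.05, and the DESeq2 adjusted p was 0.00450. Without asparagine-free library A the log2 fold change was -0.49.

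Spry4 read 16.9 and 29.0 CPM in the asparagine-free pair and 30.6 and 33.0 CPM in the asparagine-fed pair. Its level in asparagine-free library B was 1.72 times that in library A, the widest gap between libraries of a group among the members. The 95% interval of that ratio, 1.496 to 1.97, covers counting error only. The log2 fold change over all libraries was -0.47 (95% interval -1.02 to 0.08, edgeR adjusted p = 0.344). It was -0.13 without library A and -0.92 without library B, so the value depends on which of the 2 is kept.

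Spry1 was low, at 9.59 and 8.36 CPM in the asparagine-free pair and 10.2 and 12.1 CPM in the asparagine-fed pair. The groups did not overlap but lay close, and the log2 fold change of -0.32 (95% interval -0.70 to 0.06) did not pass the test (edgeR adjusted p = 0.352). It was -0.42 without asparagine-free library A and -0.19 without asparagine-fed library B. Exons of the gene model Gm42922 overlap Spry1 on the opposite strand. Spry2 was abundant, at 79.2 and 84.2 CPM in the asparagine-free pair and 79.8 and 85.9 CPM in the asparagine-fed pair. The 4 values overlapped between groups. Its log2 fold change of -0.020 had a 95% interval of -0.27 to 0.23 (edgeR adjusted p = 0.937), and its sign turned to 0.027 with upper quartile scaling and 0.025 without asparagine-free library A. The ratio of Spred1 to Spry2 reads was 1.72 and 1.83 without asparagine and 2.79 and 2.44 with it.

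**Figure D2:**
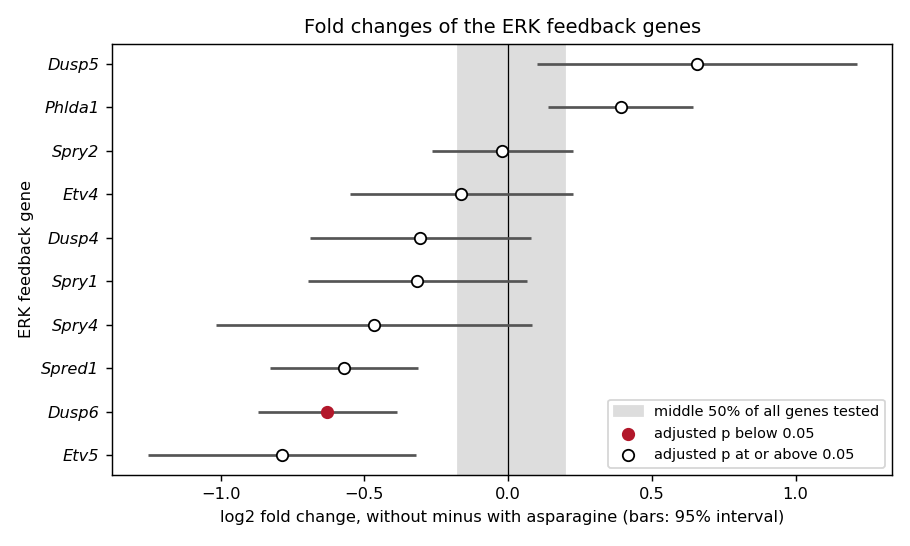
log2 fold change (without minus with asparagine) of each ERK feedback gene with its 95% interval from the edgeR fit, beside the middle 50% of all genes tested in grey. Dusp6 is the filled point at -0.63, Etv5 has the lowest value at -0.79, and Dusp5 and Phlda1 are the members above 0.

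ETV4 and ETV5 belong to the PEA3 group of ETS transcription factors, which bind the GGAA core and act downstream of ERK. Etv5 read 19.5 and 29.3 CPM in the asparagine-free pair and 39.0 and 45.5 CPM in the asparagine-fed pair. Both asparagine-free libraries were below both asparagine-fed ones, and the 2 also differed from each other, library B being 1.51 times library A (95% interval 1.32 to 1.72, counting error only). The log2 fold change of -0.79 ± 0.20 (SE, 95% interval -1.25 to -0.32) was the largest among the members in size, and missed the threshold (edgeR adjusted p = 0.118). DESeq2 called it (adjusted p = 0.00853). Without asparagine-free library A the log2 fold change was -0.53, and without library B it was -1.12.

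Etv4 read 11.5 and 15.3 CPM in the asparagine-free pair and 15.05 CPM in each asparagine-fed library. Asparagine-free library A was low and library B was the highest of the 4. The log2 fold change was -0.16 (95% interval -0.55 to 0.23, edgeR adjusted p = 0.626), and it turned to 0.027 without library A and was -0.39 without library B. There were 1.69 and 1.92 Etv5 reads per Etv4 read in asparagine-free libraries A and B and 2.59 and 3.02 in the asparagine-fed pair. The third PEA3 gene, Etv1, was read from the list of other ERK output genes. It fell from 131 ± 3.02 to 80.2 ± 8.80 CPM (SD, n = 2 each), and its log2 fold change was -0.71 ± 0.12 (SE, edgeR adjusted p = 0.0368). The Etv1 call was lost without asparagine-fed library A (adjusted p = 0.370) and without asparagine-fed library B (adjusted p = 0.283), and the log2 fold change was -0.60 without asparagine-free library A.

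PHLDA1 is a pleckstrin homology-like domain protein whose transcript follows growth factor signalling and is often counted among the outputs of ERK. Phlda1 stood at 132 and 148 CPM in asparagine-free libraries A and B and at 106 and 108 CPM in the asparagine-fed pair. The groups did not overlap, and both asparagine-free libraries were the higher ones. The difference was 0.39 ± 0.11 on the log2 scale (SE, 95% interval 0.14 to 0.64) and did not pass the test (edgeR adjusted p = 0.139). It was 0.47 without asparagine-free library A. The ratio of Dusp6 to Phlda1 reads was 0.641 and 0.600 without asparagine and 1.23 and 1.28 with it. This ratio and the 3 others given above were chosen after the values were seen and have no test. Exons of Gm28592 overlap Phlda1 on the opposite strand.

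**Figure D3:**
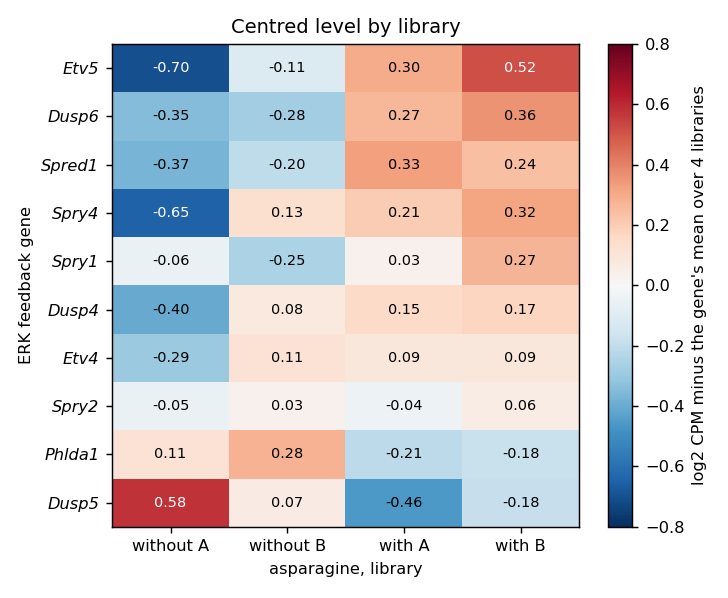
log2 CPM of each ERK feedback gene minus its own mean over the 4 libraries, with the value in each cell and red for above and blue for below the mean. Asparagine-free library A holds the lowest values of the set, -0.70 for Etv5 and -0.65 for Spry4, and Dusp6 is about equally low in asparagine-free libraries A and B (-0.35 and -0.28).

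Among themselves the members followed more than 1 pattern across the libraries. In 6 of 10 both asparagine-free libraries lay below both asparagine-fed ones, and in 2 of 10 both lay above. Among all genes tested 26.4% were separated in the lower and 26.1% in the higher direction, 52.5% in all. Asparagine-free library A had the lowest value of the 4 libraries in 7 of 10 members, against 34.9% of all genes tested, and the highest in 1 of 10, against 36.9%. Dusp4, Spry4 and Etv4 were low mainly in that library. Dusp6, Spred1 and Etv5 were low in both asparagine-free libraries. Spry1 was also lower in both, by less, and was lowest in asparagine-free library B (9.59 and 8.36 CPM in A and B, against 10.2 and 12.1 CPM). Counting error alone (95% exact binomial interval of the ratio of B to A) left out a ratio of 1 for 7 members without asparagine and for 5 members with it. These counts depend on the number of reads of each gene. They were not made over all genes tested, so they show nothing particular to the members. The ratios ran from 0.698 for Dusp5 to 1.72 for Spry4 without asparagine, and from 0.941 for Spred1 to 1.22 for Dusp5 with it.

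**Figure D4:**
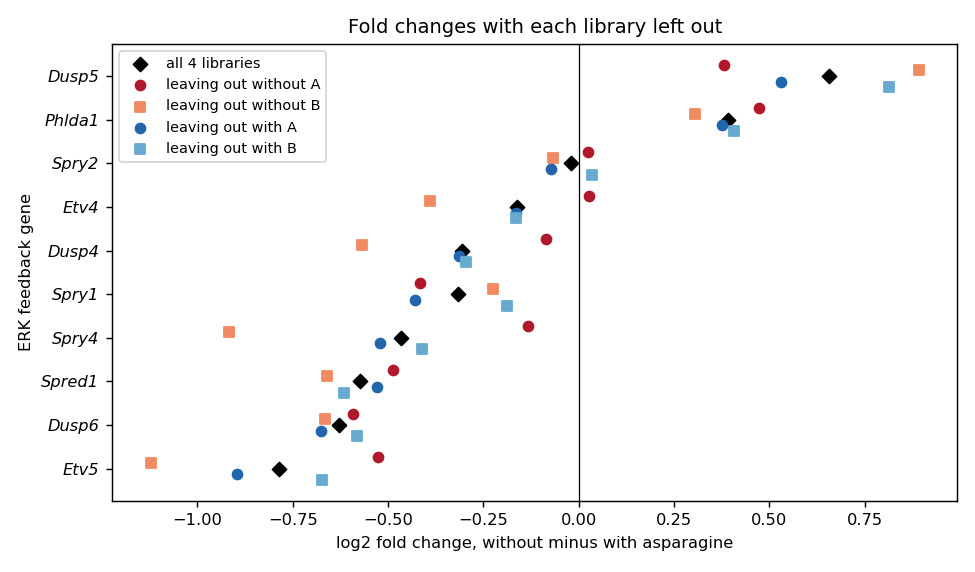
log2 fold change (without minus with asparagine) of each ERK feedback gene from all 4 libraries (black diamonds) and with each library left out in turn (coloured points). Dusp6 stays between -0.68 and -0.58, while Spry4 runs from -0.92 to -0.13 and Etv4 reaches 0.027.

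Per length, the members differed widely in level. Divided by the summed exon length of GENCODE M21, Phlda1 had the highest level with asparagine, at 48.5 ± 0.795 CPM per kb (SD, n = 2). It was followed by Dusp6 at 42.9 ± 2.00, Spry2 at 39.7 ± 2.05, Spred1 at 31.8 ± 1.37 and Dusp4 at 19.7 ± 0.177 CPM per kb. Lower in the order with asparagine were Etv5 at 10.3, Spry4 at 6.69, Etv4 at 4.85, Spry1 at 3.84 and Dusp5 at 1.66 CPM per kb. No neighbours in this order overlapped between their libraries, though Dusp6 and Spry2 nearly met, at 41.5 and 41.1 CPM per kb. Without asparagine Spry2, at 39.2 ± 1.67 CPM per kb, stood above Dusp6, at 27.7 ± 0.916. In that group the libraries of Etv5 and Spry4, of Spry4 and Etv4, and of Spry1 and Dusp5 overlapped. These lengths count every annotated exon, and the transcripts used in the cells were not measured.

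The members lie on 9 chromosomes, with Dusp6 and Phlda1 both on chromosome 10. In GRCm38, Dusp6 lies from 99263231 to 99267489 and Phlda1 from 111506286 to 111508645. Dusp4 lies on chromosome 8 from 34807297 to 34819894 and Dusp5 on chromosome 19 from 53529109 to 53542431. Spred1 lies on chromosome 2 from 117121374 to 117182279, Spry1 on chromosome 3 from 37639947 to 37644598 and Spry2 on chromosome 14 from 105891947 to 105896819. Etv4 lies on chromosome 11 from 101769742 to 101785371 and Etv5 on chromosome 16 from 22381309 to 22439719. Spry4 lies on chromosome 18 from 38586247 to 38601415. The counts are of whole genes, so they do not say which exon or untranslated region the reads came from. The GC content of the 7 member promoter windows ran from 57.3% for Dusp6 to 74.0% for the upstream start of Etv5, against a median of 52.7% over all windows.

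Other genes of the pathway were read from lists of its parts. Receptors and adaptors, which start the signal, had 2 of 15 tested genes lower and 0 higher by edgeR. Over all genes tested the shares were 1.07% and 0.771%. The median log2 fold change of the list was -0.18, against 0.01 over all genes tested. At an unadjusted p under 0.05 there were 3 lower and 0 higher, against 1217 and 1111 of 12843 genes tested. Pdgfra, a platelet-derived growth factor receptor, fell from 41.7 ± 1.48 to 20.5 ± 3.33 CPM (SD, n = 2 each, log2 fold change -1.03, edgeR adjusted p = 0.0221). Fgfr1, a fibroblast growth factor receptor, fell from 12.6 ± 0.735 to 6.21 ± 0.838 CPM (log2 fold change -1.02, edgeR adjusted p = 0.0354). Both calls were lost without asparagine-fed library A (adjusted p = 0.0933 and 0.146) and without asparagine-fed library B (0.0686 and 0.273). Without asparagine-free library A the log2 fold changes of Pdgfra and Fgfr1 were -0.87 and -0.89. Exons of other genes overlap both on the opposite strand, and Mir7025 overlaps Pdgfra on its own strand. Met, the receptor with the most reads on the list and chosen for that, had 289 ± 22.3 CPM without and 298 ± 3.18 CPM with asparagine (edgeR adjusted p = 0.862).

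Transcripts of the kinase cascade itself had 0 of 14 tested genes called by edgeR, and 4 at an unadjusted p under 0.05, all of them lower. Over all genes tested 18.1% passed that level in either direction, and 1217 of 12843 passed it as lower. Of the 14 cascade genes, 11 had a fold change below 0 and 3 above, against 6245 and 6598 of all genes tested. The list was not tested as a set. DESeq2 and limma-voom also called 0 of the cascade genes. The median log2 fold change of the list was -0.10. The smallest p was that of Rps6ka1, which encodes a ribosomal S6 kinase activated by ERK, with 40.4 ± 3.72 CPM in asparagine-free and 55.5 ± 3.35 CPM in asparagine-fed libraries (log2 fold change -0.46, or -0.37 without asparagine-free library A, edgeR adjusted p = 0.125 with all libraries). Exons of Gm12977 overlap Rps6ka1 on the opposite strand. The other inhibitors of the pathway, further phosphatases, Spred genes and RAS inactivators, had 0 of 18 tested genes called by edgeR, with 2 higher and 4 lower at an unadjusted p under 0.05, beside the same 18.1% over all genes. Errfi1, which encodes an inhibitor of the EGF receptor, had the smallest p there. It stood at 557 and 734 CPM in asparagine-free libraries A and B and at 1123 and 1119 CPM in the asparagine-fed pair (log2 fold change -0.80, edgeR adjusted p = 0.0535), and DESeq2 (adjusted p = 7.50e-05) and limma-voom (0.0456) called it. Its log2 fold change was -0.61 without asparagine-free library A. Over these lists and that of the other ERK output genes, with 15, 14, 18 and 17 genes tested, DESeq2 called 5 genes and edgeR 3. Over all genes tested DESeq2 called 3.61% and edgeR 1.85%.

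The remaining ERK output genes lay on either side of 0. Of 17 tested, 1 was lower and 0 higher by edgeR, against 1.07% and 0.771% of all genes tested. The fold change was above 0 for 10 and below 0 for 7, with a median of 0.13. At an unadjusted p under 0.05 there were 4 higher and 3 lower, against 18.1% of all genes tested in either direction. Etv1 was the gene that fell, and it was also called by DESeq2 and limma-voom. Myc and Epha4, chosen after their values were seen, differed by 0.45 and 0.50 on the log2 scale (edgeR adjusted p = 0.107 and 0.143), and DESeq2 called Myc higher. Egr1, an immediate early transcription factor picked likewise, averaged 33.5 ± 0.720 CPM in asparagine-free and 44.0 ± 1.06 CPM in asparagine-fed libraries (log2 fold change -0.39, edgeR adjusted p = 0.134). Ccnd1, which encodes cyclin D1, had 2128 ± 288 and 2562 ± 143 CPM, without and with asparagine (edgeR adjusted p = 0.341), and was also chosen after its value was seen. Exons of LTO1 overlap Ccnd1 on the opposite strand.

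**Figure D5:**
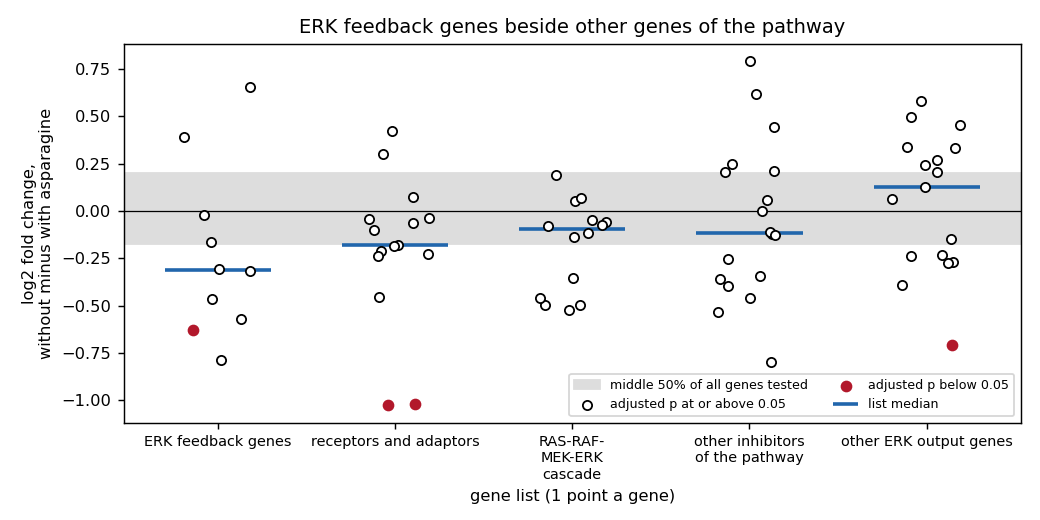
log2 fold change (without minus with asparagine) of the ERK feedback genes and of 4 lists of other pathway genes, 1 point a gene, with blue lines at the list medians and grey for the middle 50% of all genes tested. The feedback genes have a median of -0.31, the other output genes 0.13, and filled points mark Dusp6, Pdgfra, Fgfr1 and Etv1.

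The genes whose levels followed Dusp6 most closely were found by the root mean square distance of log2 CPM, centred over the 4 libraries. The search covered 9367 genes with at least 5 CPM on average, with Gm and Rik gene models left out. The closest were Col18a1, which encodes a basement membrane collagen (distance 0.0189), Acpl2 (0.0195) and St6gal1, which encodes a sialyltransferase (0.0282). Exons of BC106179 overlap St6gal1 on the opposite strand. Col18a1 stood at 59.95 and 61.9 CPM in asparagine-free libraries A and B and at 90.2 and 94.5 CPM in the asparagine-fed pair. With 4 libraries many genes can share such a profile.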

How the data were processed

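RNA of 4 libraries of Asns-silenced 4T1-T cells was sequenced, 2 without and 2 with asparagine. Per the labels' protocols, RNA was purified with a Qiagen kit and amplified with a NuGEN Ovation kit. Bowtie2, HTSeq and build mm10 are named per the submitters' processing notes, and the sources used here do not give versions, annotation or strand. The authors deposited whole-number read counts per gene symbol. Amplification and reads shared by overlapping genes can shift levels between genes.

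The 5 HTSeq summary rows, 60.1% to 70.0% of reads, stayed out of library sizes. Genes passing filterByExpr (minimum count 10, total 15) were TMM-scaled and compared in edgeR 4.0.16 (quasi-likelihood F test, 2 groups, R 4.3.3). Benjamini-Hochberg adjustment covered all genes tested, with a threshold of 0.05. Fold changes are without minus with asparagine, and the SE is the fold change divided by the square root of F. The biological coefficient of variation was 11.2%. Centred log2 CPM used a prior count of 2. Alternatives included DESeq2 1.42.0 and limma-voom (limma 3.58.1). The pipeline was tested on simulated data. Intervals of ratios between libraries cover counting error only.

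The members and lists were chosen with earlier results of these data known. All members were named. From each pathway list up to 3 called genes with the largest fold change were named, or the gene with the smallest p. A planned comparison of the members' proteins was not made here.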

Additional observations from a re-analysis of the deposited data

How the results depend on the processing

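Dusp6 was called with RLE size factors, upper quartile scaling, DESeq2, limma-voom, all genes unfiltered, only genes at 5 CPM in 2 libraries, the replicate block and without the 10 most abundant genes. Genes changed over the whole table (237, or 1.85% of all genes), feedback genes called (1) and pathway genes called (3) rose under some alternatives. They were 464 (3.61% of all genes), 3 and 5 with the DESeq2 Wald test. With no low-count filter they were 1334 (6.73% of all genes), 5 and 17.

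With the letter as a replicate block they were 816 (6.35% of all genes), 3 and 12. The labels do not say that the letters mark a shared culture or day, and deviations of same-letter libraries had a correlation of 0.12 across 12843 genes. The 3 feedback genes called under the block were Dusp6, Spred1 (adjusted p = 0.0135) and Etv5 (8.81e-04).

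Leaving out each library in turn gave 59 to 5366 changed genes, 0 to 8 feedback genes and 0 to 40 pathway genes, and a median of the feedback genes between -0.48 and -0.11. The high counts came without asparagine-free library B (5366, 8 and 40, with 41.8% of all genes called) and without its library A (2061, 4 and 21), where the spread between the asparagine-fed libraries alone set the error and the lone library was assumed to vary like them. Without asparagine-fed library A the counts were 67, 0 and 0, and without its library B 59, 0 and 0.

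The log2 fold change of Spry2, -0.020, turned to 0.027 with upper quartile scaling, and it ran from -0.072 to 0.034 over the left-out libraries, turning without asparagine-free library A (0.025) and asparagine-fed library B (0.034). That of Etv4 ran from -0.39 to 0.027, turning without asparagine-free library A. The other 8 feedback genes kept their sign under every alternative run. With 88 to 141 reads a library, depth limits Dusp5 most.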
